A study of Mus musculus with 6 samples.

Results

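Rod photoreceptors detect dim light through a chain of proteins in a stack of membrane discs called the outer segment. A photon changes the visual pigment, the pigment switches on the G protein transducin, transducin releases the phosphodiesterase PDE6 from its inhibitory subunits, PDE6 breaks down cyclic GMP, and the channel that cyclic GMP holds open closes. Arrestin then binds the active pigment and ends its signal. These genes are known for very high expression in rods, the most numerous cells of the mouse retina, so their RNA is commonly read as a mark of rod material in a retinal preparation.

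The 9 genes described here are Gnat1, Gngt1, Pde6a, Pde6b, Pde6g, Cnga1, Cngb1, Sag and Rom1, taken by name from the 32371 genes of a table of read counts. They are listed for their role in the cascade and its discs, with earlier results of these data known. Gnat1 and Gngt1 encode the alpha and gamma subunits of rod transducin. Pde6a and Pde6b encode the catalytic subunits of rod PDE6, and Pde6g its inhibitory subunit. Cnga1 and Cngb1 encode the alpha and beta subunits of the rod cyclic nucleotide-gated channel. Sag encodes rod arrestin, and Rom1 a tetraspanin of the disc rims, which shapes the disc and is not itself a step of the cascade. Rom1 and Sag are also made in cones, so they are less strictly rod genes than the others.

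The libraries came from adult C57BL/6J mice of both sexes. The control group received AAV2-GFP by injection into the vitreous body and the other group AAV2-Ezh2-Y726D, a form of the histone H3 lysine 27 methyltransferase Ezh2 in which the tyrosine to aspartate change Y726D removes catalytic activity. In both groups the optic nerve was crushed (ONC) 2 weeks after the injection, and 3 days after ONC the retina was dissociated and live cells that stained for CD90.2, the product of Thy1, were sorted as retinal ganglion cells (RGCs). Each group had 3 libraries of stranded total RNA. The promoter of the vectors and the number of mice behind a library are not given in the sources used here. AAV2 in the vitreous reaches mainly RGCs, and rods are not its usual target. The sources do not say that the 3 libraries per group are from separate mice, so P values measure the spread between these libraries, which may be technical.

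Ezh2 itself, the check of the labels, stood at 22.7, 23.8 and 26.3 CPM with GFP and at 65.1, 65.5 and 65.1 CPM with Ezh2-Y726D. CPM is a gene's count scaled to a common library size, here after TMM scaling, which corrects for the makeup of each library. The counts do not separate vector RNA from the mouse gene. The libraries held between 9333244 and 23782520 counts. A gene of ribosomal RNA, CT010467.1, took 6.59%, 50.88% and 52.21% of the counts of GFP libraries 1, 2 and 3 and 2.55% to 16.11% of those of the Ezh2-Y726D libraries, so that GFP libraries 2 and 3 stood apart from the rest. With plain library totals as the scale, the median log2 fold change of the genes tested shifts to 0.49, so every direction given here is relative to the TMM scale. Without that gene the totals ran from 4460732 to 22024582. The rod genes had 495 to 30648 counts per gene and library, and the lowest of these counts, for Cnga1, was in GFP library 3, so counting error weighs most on the less abundant genes in the shallow GFP libraries.

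Promoters were read for the rod genes because many of them are known targets of the photoreceptor homeodomain factor CRX and the rod leucine zipper factor NRL, and the RNA of several photoreceptor factors is compared below. RefSeq promoter windows on GRCm38.p6 were matched for 6 of the 9 genes (Gngt1, Pde6b, Cnga1, Cngb1, Sag and Rom1), each running from 250 bases before to 50 bases after a RefSeq start. That start is the same as the gene start of GENCODE vM21, given below with each gene, for Cngb1, Sag and Rom1. It lies 216 bases downstream of it in Gngt1 and 1523 bases downstream in Cnga1, so the windows of these genes lie mostly or wholly inside the GENCODE gene, and it differs by -18 bases (upstream) in Pde6b. The letters TAATCC, a core recognised by CRX, were searched on both strands and stood in 4 of the 6 windows, against 7.06% of all 32851 windows of the same length. The letters TGCTGA, part of the site of NRL, were searched likewise and stood in 2 of the 6, against 19.5% of all windows. The windows with the CRX letters are shown 5′ to 3′ on the strand of the gene because these genes carry both the calls and the lack of calls described below. Capitals mark TAATCC or its reverse complement GGATTA in each window and, in Sag, also TGCTGA.
Gngt1: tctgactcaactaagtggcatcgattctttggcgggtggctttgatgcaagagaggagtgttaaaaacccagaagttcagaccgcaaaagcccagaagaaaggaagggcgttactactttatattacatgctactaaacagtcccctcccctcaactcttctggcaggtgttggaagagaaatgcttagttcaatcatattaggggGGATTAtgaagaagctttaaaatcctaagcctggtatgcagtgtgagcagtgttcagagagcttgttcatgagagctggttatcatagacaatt
Cnga1: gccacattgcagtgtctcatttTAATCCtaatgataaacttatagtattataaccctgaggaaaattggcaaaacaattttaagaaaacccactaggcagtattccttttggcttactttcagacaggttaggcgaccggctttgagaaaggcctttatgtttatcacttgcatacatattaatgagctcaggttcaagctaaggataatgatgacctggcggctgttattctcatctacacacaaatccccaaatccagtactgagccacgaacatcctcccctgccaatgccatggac
Cngb1: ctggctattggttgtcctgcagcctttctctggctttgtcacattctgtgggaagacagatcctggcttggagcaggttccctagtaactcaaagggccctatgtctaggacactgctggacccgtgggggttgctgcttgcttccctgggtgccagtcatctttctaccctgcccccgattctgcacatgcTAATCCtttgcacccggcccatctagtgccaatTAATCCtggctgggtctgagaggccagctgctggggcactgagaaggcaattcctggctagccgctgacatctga
Sag: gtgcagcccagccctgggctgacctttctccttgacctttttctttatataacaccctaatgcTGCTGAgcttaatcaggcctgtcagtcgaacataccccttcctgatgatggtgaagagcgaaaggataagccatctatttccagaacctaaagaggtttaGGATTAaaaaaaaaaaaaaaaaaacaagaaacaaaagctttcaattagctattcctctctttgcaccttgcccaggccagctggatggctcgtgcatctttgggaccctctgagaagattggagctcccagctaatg
The windows lie at chr6:3993758-3994057 (plus strand) for Gngt1, chr5:72642703-72643002 (minus strand) for Cnga1, chr8:95306536-95306835 (minus strand) for Cngb1 and chr1:87803430-87803729 (plus strand) for Sag. The first base of the CRX letters was 44 bases before the RefSeq start in Gngt1, 228 in Cnga1, 58 and 25 in Cngb1 and 87 in Sag, and that of the NRL letters 187 bases before the start in Sag. In Pde6b the NRL letters began 8 bases before the start. The window of Rom1 held neither run of letters. No matches overlapped, and a match describes the sequence only.

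Rod RNA was abundant in the cells sorted for CD90.2, and its sum was alike in both groups. The summed level of the 9 genes was 2712, 2716 and 2854 CPM with GFP and 2701, 2855 and 2878 CPM with Ezh2-Y726D. The lowest and the highest sum both lay in the Ezh2-Y726D group, and the groups overlapped. Their means were 2761 ± 80.7 and 2811 ± 96.0 CPM (SD, n = 3 each), a ratio of 1.02, so the difference was smaller than the SD of either group. The 9 genes took 0.363% to 0.386% of the counts left without the ribosomal RNA gene. In sorted bulk samples such as these, a level of rod RNA does not tell the number of rods from the RNA per rod, so fewer cells and less RNA per cell cannot be told apart in any of the levels given here.

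All 9 genes passed the filter on low counts. With an adjusted P under 0.05 in edgeR's quasi-likelihood test, 2 rod genes were higher in the Ezh2-Y726D group (Gnat1 and Cnga1), 1 was lower (Gngt1), and 6 did not pass. Of the 18138 genes tested, 13.9% were higher and 13.6% lower by the same rule, 27.5% in all, so the 3 calls among 9 were near the background. No rod gene was called when a change of more than 1.5-fold was also required, as the study did, against 8.02% of the genes tested. The median log2 fold change of the rod genes was 0.02, beside 0.002 for the genes tested. The groups did not overlap for 3 of the 9 (Gngt1, Cnga1 and Cngb1), against 38.6% of the genes tested.

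**Figure D1:**
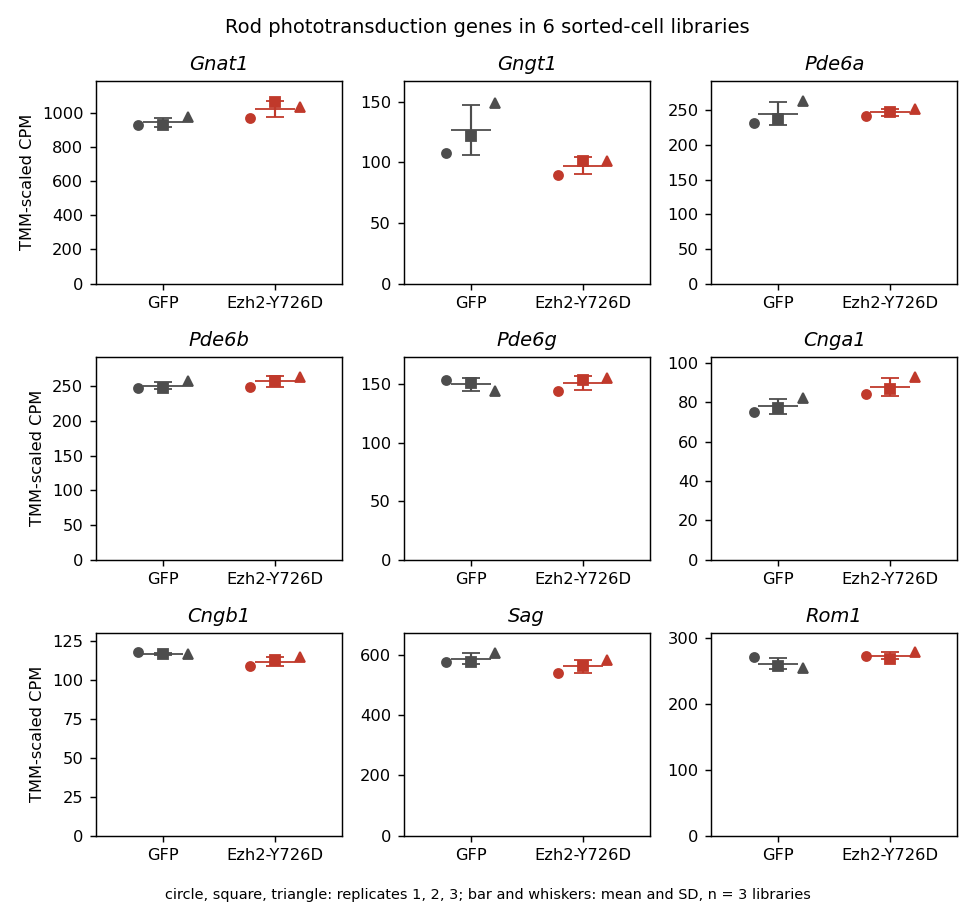
TMM-scaled CPM (vertical axes, from 0) of the 9 rod genes in each of the 3 GFP and 3 Ezh2-Y726D libraries; each point is a library. Only Gngt1, Cnga1 and Cngb1 have groups that do not overlap, and the points of the other genes interleave.

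The transducin subunits moved in opposite directions. Gnat1 (ENSMUSG00000034837, GRCm38 chromosome 9, 107674474 to 107679712, minus strand) had 928, 928 and 978 CPM with GFP and 971, 1064 and 1037 CPM with Ezh2-Y726D. GFP library 3 lay above Ezh2-Y726D library 1, so the groups overlapped. The log2 fold change was 0.12 with an SE of 0.041, a rise of 8.43% (95% interval 2.35% to 14.9%; edgeR adjusted P = 0.0315). Leaving out a single library ended the call in 4 of 6 cases, at 0.10 without GFP library 1 (adjusted P = 0.101), 0.10 without GFP library 2 (0.107), 0.09 without Ezh2-Y726D library 2 (0.195) and 0.11 without Ezh2-Y726D library 3 (0.0973). It was lost also with totals without the ribosomal RNA gene as the scale (0.10, adjusted P = 0.0663).

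Gngt1 (ENSMUSG00000029663, chromosome 6, 3993792 to 3997436, plus strand) had 108, 122 and 149 CPM with GFP and 89.2, 101 and 101 CPM with Ezh2-Y726D. Every GFP library was above every Ezh2-Y726D library, and GFP library 3 was the highest. The log2 fold change was -0.34 with an SE of 0.069, and the level fell by 20.9% (95% interval -28.2% to -12.8%; edgeR adjusted P = 0.000323). Gngt1 also had the largest spread of the rod genes, with coefficients of variation of 16.3% within the GFP group and 7.26% within the other, and a highest library 1.67 times the lowest. Its 2 highest libraries were the 2 with the most ribosomal RNA, GFP 2 and 3, and with GFP library 1 alone as the control, a fit that takes the lone library to vary like the others, the log2 fold change was -0.16 (adjusted P = 0.073). DESeq2 gave -0.37 with an adjusted P of 0.0606, and the fit without GFP library 3 gave -0.22 (adjusted P = 0.00315). The part of the ribosomal RNA share in this difference was not tested.

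**Figure D2:**
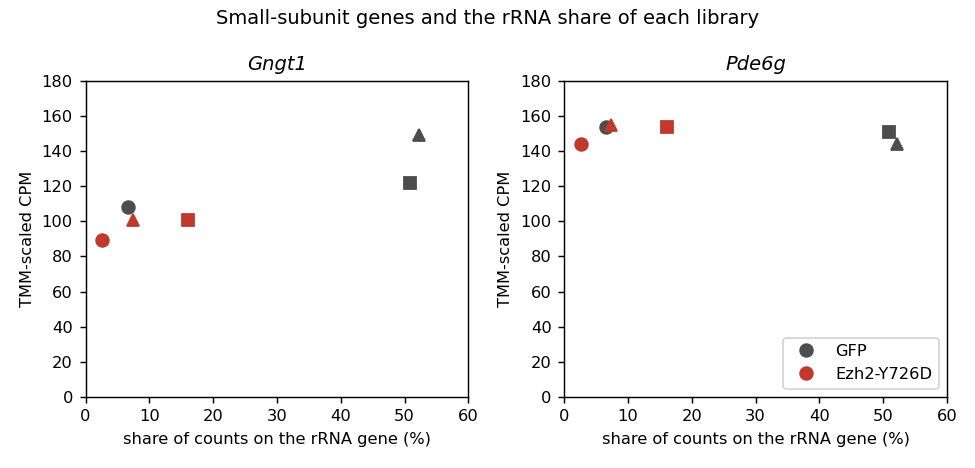
Level of Gngt1 and, for comparison, of Pde6g, another small subunit (vertical axis, TMM-scaled CPM), against the share of counts on the ribosomal RNA gene (horizontal axis, percent) in the 6 libraries, each a point. Gngt1 is highest, at 122 and 149 CPM, in the GFP libraries at 50.88% and 52.21%, where Pde6g stands at 151 and 144 CPM.

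The PDE6 subunits were flat. Pde6a (ENSMUSG00000024575, chromosome 18, 61220315 to 61289924, plus strand) stood at 232, 238 and 264 CPM with GFP and at 242, 248 and 252 CPM with Ezh2-Y726D. All 3 Ezh2-Y726D libraries lay inside the range of the GFP libraries, and the difference was 1.72% (95% interval -4.41% to 8.24%; adjusted P = 0.748). Pde6b (ENSMUSG00000029491, chromosome 5, 108388391 to 108432397, plus strand) stood at 247, 248 and 257 CPM with GFP and at 249, 258 and 264 CPM with Ezh2-Y726D. Its highest library was 1.07 times its lowest, the smallest such ratio of the 9 genes, and the difference was 2.59% (95% interval -3.05% to 8.54%; adjusted P = 0.561). Pde6g (ENSMUSG00000025386, chromosome 11, 120447605 to 120453500, minus strand) stood at 154, 151 and 144 CPM with GFP and at 144, 154 and 155 CPM with Ezh2-Y726D. The groups shared the same range, and the difference was 0.186% (95% interval -5.6% to 6.33%; adjusted P = 0.976). The intervals of all 3 genes exclude a change of 10% in either direction.

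The channel subunits did not move together. Cnga1 (ENSMUSG00000067220, chromosome 5, 72603696 to 72644275, minus strand) stood at 74.8, 76.9 and 82.0 CPM with GFP and at 84.0, 86.7 and 92.7 CPM with Ezh2-Y726D. The groups did not overlap, though the highest GFP and the lowest Ezh2-Y726D library were close. The log2 fold change was 0.19 with an SE of 0.050, a rise of 13.9% (95% interval 6.12% to 22.3%; edgeR adjusted P = 0.00464). The call was lost without GFP library 1 (0.15, adjusted P = 0.0828) and without Ezh2-Y726D library 3 (0.14, adjusted P = 0.0642). Cngb1 (ENSMUSG00000031789, chromosome 8, 95239045 to 95306585, minus strand), whose product sits in the same channel, stood at 118, 117 and 117 CPM with GFP and at 109, 113 and 115 CPM with Ezh2-Y726D. Every Ezh2-Y726D library was below every GFP library, but the difference of -4.34% did not pass the test (95% interval -9.81% to 1.46%; adjusted P = 0.286).

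Sag (ENSMUSG00000056055, chromosome 1, 87803680 to 87845158, plus strand) stood at 578, 578 and 608 CPM with GFP and at 541, 562 and 582 CPM with Ezh2-Y726D. The groups overlapped at a single library of the Ezh2-Y726D group, and the difference was -4.34% (95% interval -9.63% to 1.26%; adjusted P = 0.266). Rom1 (ENSMUSG00000071648, chromosome 19, 8927391 to 8929356, minus strand) stood at 271, 258 and 254 CPM with GFP and at 272, 268 and 278 CPM with Ezh2-Y726D. GFP library 1 reached the Ezh2-Y726D range, and the difference was 4.08% (95% interval -1.64% to 10.1%; adjusted P = 0.322). None of the 9 genes shares exonic bases with another annotated gene in GENCODE vM21.

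The share that each gene took of the summed CPM is given as a description, with no test and no like measure over other genes, so nothing is read from how many shares overlap between the groups. Gnat1 made up 34.2% to 34.3% with GFP and 35.9% to 37.3% with Ezh2-Y726D, and Cnga1 2.76% to 2.87% and 3.04% to 3.22%. Sag gave 21.3% in each GFP library and 19.7% to 20.2% with Ezh2-Y726D, Cngb1 4.11% to 4.35% and 3.95% to 4.04%, and Gngt1 4.0% to 5.22% and 3.3% to 3.55%. The other shares were 8.91% to 10.1% for Rom1, 9.02% to 9.23% for Pde6b, 8.57% to 9.24% for Pde6a and 5.04% to 5.69% for Pde6g over the 6 libraries. The shares add up to a fixed total, so they do not move independently. Within groups the median coefficient of variation of the rod genes was 3.44% with GFP and 3.65% with Ezh2-Y726D. It was 3.88% and 2.89% for the 3910 tested genes with a mean of at least 50 CPM, which were not matched to the rod genes in level.

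Levels of different genes were compared per kilobase of the principal transcript, as means of the 3 GFP libraries. The order was Gnat1 (406 ± 12.4 CPM per kilobase), Sag (342 ± 10.2), Rom1 (172 ± 5.92), Pde6g (166 ± 5.88), Gngt1 (107 ± 17.5), Pde6b (89.7 ± 1.99), Pde6a (53.3 ± 3.67), Cnga1 (28.4 ± 1.35) and Cngb1 (19.0 ± 0.0941). Rom1 and Pde6g overlapped between libraries, at 168 to 179 and 160 to 172 CPM per kilobase, and so did Gngt1 and Pde6b, at 91.7 to 126 and 88.4 to 92.0. In the Ezh2-Y726D libraries Pde6b (89.1 to 94.4 CPM per kilobase) stood above Gngt1 (75.4 to 85.8). The order rests on the transcript chosen, since per kilobase of all annotated exons Rom1 (172) passed Sag (66.0) in the GFP mean.

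Rod RNA was compared with markers of the sorted cells on the same scale. Thy1, the gene of the sorted antigen, stood at 60.7 CPM per kilobase in the GFP mean, below 6 of the 9 rod genes. The neurofilament gene Nefl stood at 42.7, Sncg at 34.5, the glutamate transporter gene Slc17a6 at 19.5 and Rbpms, a widely used RGC marker, at 14.8 CPM per kilobase. The RGC transcription factor genes Pou4f1 and Pou4f2 stood at 2.21 and 0.549. Gnat1 thus lay above each of these RGC markers, and Cngb1, the lowest rod gene on this scale, lay above Rbpms. The GFP libraries of Cngb1 (18.9 to 19.1 CPM per kilobase) fell inside the range of Slc17a6 (18.4 to 20.0). All 12 RGC markers were detected in these libraries, with 3 higher, 1 lower and 8 not passing the test in the Ezh2-Y726D group. Thy1 was among the higher genes (log2 fold change 0.13, edgeR adjusted P = 0.0315). The median log2 fold change of the list was -0.07, with the largest changes in Isl1 (-0.58) and Ebf3 (0.52). Whether these changes arose in RGCs or in other sorted cells was not tested. The sums of the list were 534 to 548 CPM with GFP and 527 to 562 CPM with Ezh2-Y726D.

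**Figure D3:**
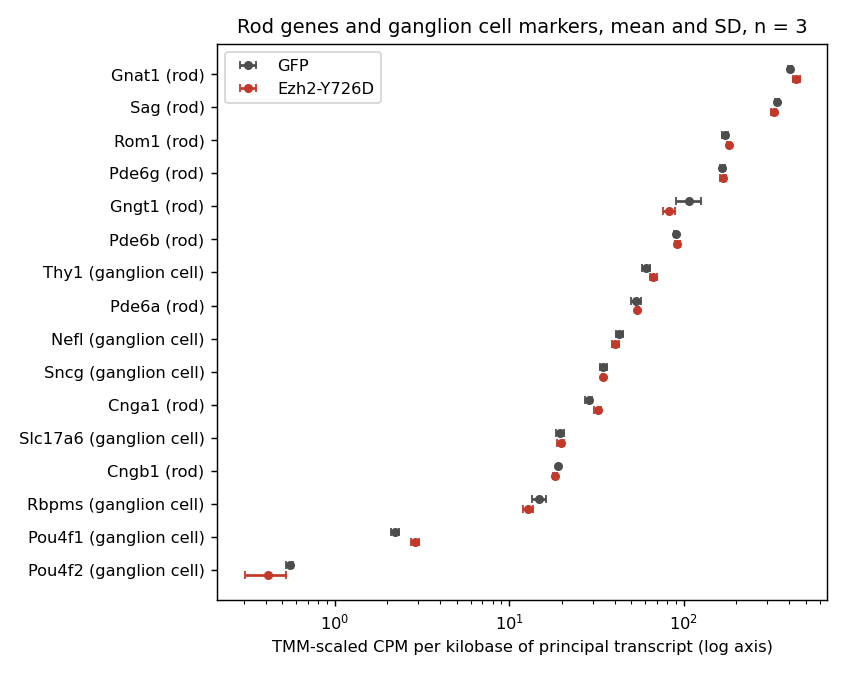
Level of the 9 rod genes and 7 RGC markers, as TMM-scaled CPM per kilobase of the principal transcript (horizontal log axis), with the mean and SD of 3 libraries per group. Rod genes take the 6 highest places, from Gnat1 at 406 down to Pde6b at 89.7 in the GFP group, above Thy1 at 60.7.

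Other genes of the photoreceptor were read beside the rod genes, from lists chosen by function. A list of 12 genes held Gnb1, the beta subunit of rod transducin, and 11 genes that end the photoresponse or carry its calcium feedback. In this list 1 gene was higher, 2 were lower and 9 did not pass, with a median log2 fold change of -0.03 and a ratio of summed CPM of 1.0. Gnb1, its most abundant gene, which many other cells also use, stood at 710 ± 27.6 and 752 ± 20.3 CPM (log2 fold change 0.08, adjusted P = 0.122). Without Gnb1 the ratio of the sums was 0.969, with 1239 to 1325 CPM for GFP and 1183 to 1272 CPM for Ezh2-Y726D. Guca1a, an activator of guanylate cyclase, had the largest estimate of the list (-0.73, adjusted P = 0.174) at 0.338 to 1.03 CPM over the 6 libraries. Slc24a1, the sodium and calcium exchanger of the rod outer segment, rose from 158 ± 10.6 to 181 ± 7.81 CPM (log2 fold change 0.22, adjusted P = 0.000495). Grk1, the kinase of the visual pigment, fell from 342 ± 9.11 to 308 ± 9.35 CPM (-0.15, adjusted P = 0.00492). Rgs9bp, the anchor of the protein that switches transducin off, fell from 96.9 ± 6.02 to 80.9 ± 4.84 CPM (-0.24, adjusted P = 0.000642). Mouse cones also use Grk1 and Rgs9bp.

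Of 16 genes of the outer segment, the retinoid cycle and other photoreceptor functions, 3 were higher, 3 were lower and 10 did not pass, with a median log2 fold change of -0.01 and a ratio of summed CPM of 1.01. Prom1, which encodes a protein of membrane protrusions needed for disc formation, rose from 227 ± 2.05 to 285 ± 4.52 CPM (0.33, adjusted P = 1.06e-07). Aipl1, a chaperone gene for PDE6, fell from 117 ± 7.78 to 99.6 ± 4.14 CPM (-0.24, adjusted P = 0.000249). The other calls of this list were Reep6 and Impg1 (higher) and Rp1l1 and Tulp1 (lower), all within 0.18 on the log2 scale. Rbp3, the retinoid carrier between photoreceptors and pigment epithelium and the most abundant gene of the list, stood at 745 ± 5.36 and 754 ± 5.73 CPM (0.02, adjusted P = 0.799). Rp1, a gene of the outer segment axoneme, stood at 337 ± 29.8 and 362 ± 28.2 CPM (0.11, adjusted P = 0.124).

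The photoreceptor transcription factors split. Of 6 genes, 4 were lower in the Ezh2-Y726D group and 2 did not pass, with a median log2 fold change of -0.21. Otx2, which directs photoreceptor and bipolar fates, fell from 86.6 ± 3.07 to 58.3 ± 3.00 CPM (-0.56, adjusted P = 8.17e-10), and Crx from 230 ± 14.6 to 181 ± 1.68 CPM (-0.34, adjusted P = 3.95e-07). Otx2 shares part of its exons with the genes Otx2os1 and Gm49154. Samd7 (-0.22) and Neurod1 (-0.19) were lower as well. Nrl, which directs rod fate, stood at 133 ± 5.12 and 144 ± 3.24 CPM (0.11, adjusted P = 0.0524), and its target Nr2e3, a repressor of cone genes, at 54.7 ± 1.56 and 58.4 ± 0.871 CPM (0.08, adjusted P = 0.268). Neither of these rod factors was called.

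Cone markers were lower. Of 10 cone genes, 9 were lower in the Ezh2-Y726D group, 6 of them by more than 1.5-fold, and Cngb3 did not pass (-0.16, adjusted P = 0.248). Their median log2 fold change was -0.63, and their sum was 721 to 733 CPM with GFP and 481 to 506 CPM with Ezh2-Y726D. The most abundant cone genes were Gnb3, the beta subunit of cone transducin, which bipolar cells also make, and the short-wave opsin gene Opn1sw. Gnb3 fell from 254 ± 6.03 to 188 ± 4.41 CPM (-0.43) and Opn1sw from 157 ± 7.16 to 101 ± 3.54 CPM (-0.64). The cone counterparts of the rod genes gave -0.72 for Gnat2, -0.78 for Gngt2, -0.69 for Pde6c, -0.61 for Pde6h, -0.81 for Cnga3 and -0.47 for Arr3. Gngt2 shares 12.5% of its exonic bases with Abi3, a gene of microglia, on the opposite strand, and Opn1sw 15.5% with Calu. Like Gngt1, Gngt2 was higher in GFP libraries 2 and 3 (48.3 and 42.7 CPM) than in GFP library 1 (34.5 CPM). The part of the ribosomal RNA share in this was not tested.

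The rod to cone ratio within each library was compared for 8 pairs, the test of the difference between the groups being an exact permutation of the 6 libraries (2-sided), whose smallest possible P is 0.1. All 8 mean ratios were higher in the Ezh2-Y726D group, and for 7 the groups did not overlap. No like measure over other pairs of genes was made, and 9 of the 10 cone genes did not overlap by themselves, so nothing about the rod genes is read from this count. The log2 ratio of Gnat1 to Gnat2 went from 3.70 ± 0.019 to 4.54 ± 0.054, a difference of 0.84 or 1.79-fold (exact P = 0.1, adjusted over 8 pairs 0.114). The same P and adjusted P were found for the other non-overlapping pairs. Their differences were 0.47 for Gngt1 to Gngt2, 0.72 for Pde6a to Pde6c, 0.74 for Pde6b to Pde6c, 0.64 for Pde6g to Pde6h, 1.04 for Cnga1 to Cnga3 and 0.40 for Sag to Arr3. Cngb1 to Cngb3 differed by 0.15, and its groups overlapped (exact P = 0.2, adjusted 0.2). With 3 libraries against 3 no pair could reach 0.05, and the pairs with Pde6a and Pde6b share Pde6c.

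**Figure D4:**
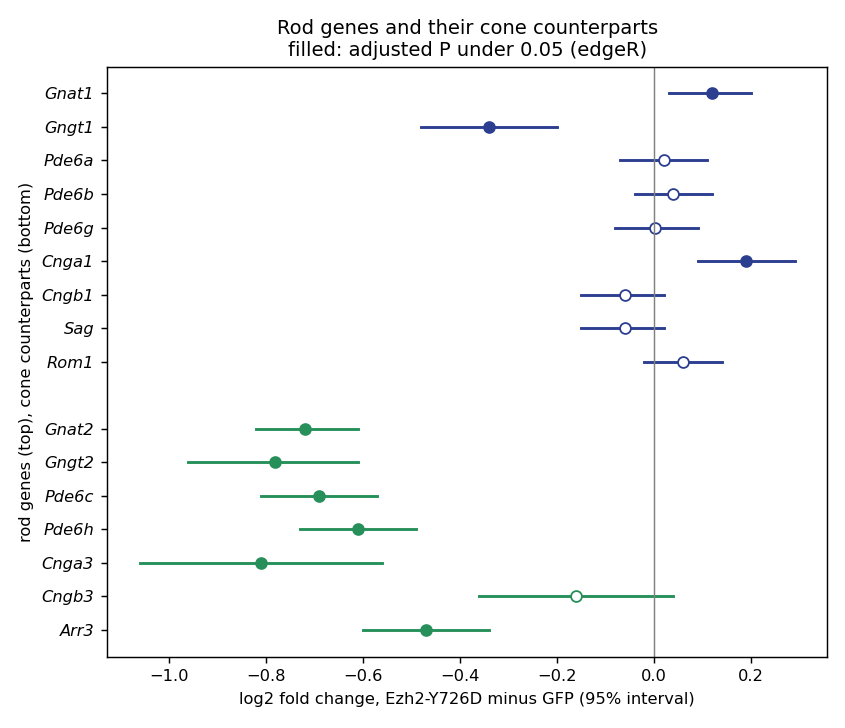
Log2 fold change, Ezh2-Y726D minus GFP, with its 95% interval (horizontal axis) for the 9 rod genes at the top and their 7 cone counterparts at the bottom; filled points passed an adjusted P of 0.05 in edgeR. The rod genes lie between -0.34 and 0.19 and the cone genes between -0.81 and -0.16.

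Markers of the other cells that a sort could hold were read over whole lists, and none of the listed genes was at 0 in every library. Bipolar markers had 8 of 10 lower and 1 higher, with a median log2 fold change of -0.39 and sums of 1043 to 1048 CPM with GFP and 852 to 875 CPM with Ezh2-Y726D. Trpm1 (-0.38) was the most abundant, and Vsx1 (-0.74) and Cabp5 (-0.61) had the largest changes. All 9 tested amacrine markers were higher (median 0.54; sums of 1585 to 1718 and 2429 to 2511 CPM), among them Pax6 (0.43) and, with the largest changes, the transporter genes Slc6a9 (0.74) and Slc32a1 (0.70). Microglial markers had 8 of 10 lower and 1 higher (median -0.58; 896 to 996 and 562 to 662 CPM), with C1qa (-0.84) and Csf1r (-0.39) the most abundant and Fcrls (-1.49) and Aif1 (-1.04) the most changed. Activated phagocyte markers had 9 of 10 lower and 1 higher (median -0.94; 795 to 833 and 425 to 445 CPM), among them Ctsd (-0.74), Gpnmb (-2.31) and Msr1 (-1.80). Müller glia markers had 3 of 10 higher and 1 lower, with a median of -0.04 and a ratio of sums of 0.997. Their sums, 7534 to 7870 CPM with GFP and 7548 to 7864 CPM with Ezh2-Y726D, were higher than those of the rod genes. Glul, the most abundant, did not pass (-0.09, adjusted P = 0.0871), while Dkk3 (0.18) and Sox9 (0.21) were higher. None of the 3 tested horizontal cell markers passed, at 0.14 for Calb1, -0.28 for Onecut2 and 0.17 for Onecut1. The sum of the rod genes, at a ratio of 1.02, did not follow the lists that moved, and the part of these cells in the calls on Gnat1, Gngt1 and Cnga1 was not tested.

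**Figure D5:**
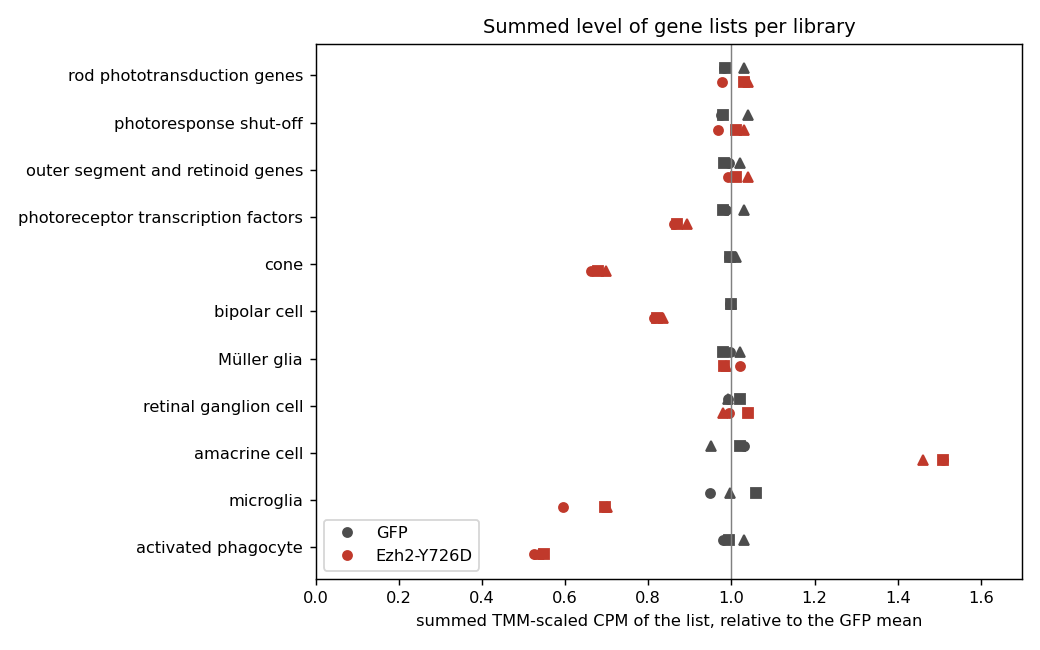
Summed TMM-scaled CPM of each gene list in each library, relative to the mean of the 3 GFP libraries (horizontal axis); each point is a library and the line marks 1. The rod genes lie between 0.978 and 1.04 in all 6 libraries, while the cone list lies between 0.663 and 0.698 and the amacrine list between 1.46 and 1.51 with Ezh2-Y726D.

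A profile of the rod genes was made as the mean of their standardised log2(CPM + 0.5) over the libraries, and stood at -0.25, -0.35 and 0.34 with GFP and at -0.69, 0.22 and 0.73 with Ezh2-Y726D. Both groups thus held libraries with lower and with higher rod RNA. Among 12199 genes outside the photoreceptor lists with a mean of at least 5 CPM, those with the most similar profile included Hltf (r = 0.969), Gm42993 (0.958), Vps54 (0.953), Ints6 (0.949) and Zfp386 (0.947). These are Pearson's r over 6 libraries, the highest of many, given as a description. None of these genes passed the test between the groups, and their log2 fold changes ran up to 0.12.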

How the data were processed

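The authors deposited whole-number read counts per gene, without normalization, for 6 libraries of total RNA (TruSeq Stranded Total RNA). Submitters' processing notes name STAR 2.7.0d and GRCm38. The counting tool, its annotation and its strand setting are not given in the sources used here. Some named genes share exonic bases with other genes on the opposite strand, among them Slc6a9 (38.6%), Nefl (32.8%), Slc32a1 (24.9%) and Csf1r (15.1%). On the same strand Ctsd shares 34.4% and Rdh5 25.6%. Symbols were found for 32325 of 32371 identifiers, and coordinates, exons and principal transcripts were taken from GENCODE vM21.

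TMM scaling, filterByExpr (10 counts, total 15) and the quasi-likelihood test of edgeR 4.0.16 (R 4.3.3) were run on all 6 libraries with group as the only term, and P values were adjusted by Benjamini-Hochberg over the 18138 genes tested. SEs were derived from the F statistic of each gene and its log2 fold change. The test was first run on simulated counts in which 200 genes were changed by 1 on the log2 scale, up or down, and 86% of them were called. Changes as small as those of the rod genes were not simulated.

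The rod genes and lists were chosen with earlier results of these data known. The named genes are the rod genes, Ezh2, for each list the 2 genes with the highest mean CPM and the 2 with the largest change, the 6 genes of most similar profile, and list members named to complete a count. Of the genes that this rule gives, 3 are not reported here. Thy1, Nefl and the other RGC markers were named for scale. Alternatives were other scalings, filters and tools (DESeq2 1.42.0), the replicate number as a block, thinned counts, libraries left out and, chosen after seeing the data, GFP library 1 as the only control.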

Additional observations from a re-analysis of the deposited data

How the results depend on the processing

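With library totals as the scale, which the ribosomal RNA gene enters, the median of the genes tested shifted to 0.49 and 65 of them were called in place of 4988. The rod median was then 0.54, as was the log2 ratio of the summed rod CPM (0.03 with TMM), Gngt1 gave 0.17, Cngb1 0.44 and Sag 0.45, and 0 rod genes were called in either direction at adjusted P values of 0.42 or more. Totals without that gene left 1 rod gene higher, and Gnat1 at 0.10 was lost. A change over 1.5-fold left 0 higher and 0 lower. DESeq2 and GFP library 1 as the only control each left 0 lower. Leaving out each library gave 0 to 2 rod genes higher, 1 to 1 lower and medians of 0.01 to 0.04. Estimates close to 0 changed sign: Pde6a ran from -0.02 to 0.08 and Pde6g from -0.02 to 0.04 without single libraries, and Pde6g gave -0.0001 with RLE size factors, -0.02 with totals without the ribosomal RNA gene and -0.03 with GFP library 1 alone. The cause was not tested.

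Both groups are numbered 1 to 3, but same-numbered libraries deviated together with r of only 0.11, 0.04 and 0.03. Each library nevertheless had its highest r with its own number, and the labels do not say whether the numbers pair the libraries. With the replicate block 2 rod genes were higher and 1 lower, Gngt1 at -0.36 (edgeR adjusted P = 1.98e-07), Pde6g at -0.004, and 5223 genes were called. GFP libraries 2 and 3 were the shallowest, with totals without the ribosomal RNA gene of 5745352 and 4460732, which limits the precision of the control group.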

Other observations

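Of the 8 markers of the retinal pigment epithelium, the layer that touches the rod outer segments, 7 were low in every library. Rgr reached 3.15 CPM at most, and Rpe65, the isomerase of the visual cycle, was too low to be tested. Rrh, a retinal G protein-coupled receptor, stood apart at 56.2 to 60.7 CPM. None of the 7 tested markers passed, the largest estimates being -0.49 for Rdh5 and 0.39 for Best1, and the sum of the list was 64.0 to 69.0 CPM with GFP and 64.1 to 66.6 CPM with Ezh2-Y726D, far below the summed rod genes.

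Among the guanylate cyclase activators that restore cyclic GMP after a flash, Guca1b stood at 50.4 to 56.4 CPM over the 6 libraries, while its genomic neighbour Guca1a did not exceed 1.03 CPM. The annotation used for counting is not given, and its part in the low count of Guca1a was not tested.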
